A study of Mus musculus with 6 samples.

Results

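Late condensing spermatids are the last haploid germ cells before release as spermatozoa, and here they are barcodes that had protamine transcripts and had lost most of their transition protein transcripts. A barcode, which stands for 1 droplet and usually 1 cell, was chosen by its measured RNA levels: it had at least 2500 and under 12000 unique molecular identifiers (UMIs, 1 per captured transcript), under 20% mitochondrial UMIs, at least 2% of its UMIs from Prm1 and Prm2, under 4% from Tnp1 and Tnp2, and under 0.05% from 10 acrosomal genes. The rule gave 5119 members among the 68155 barcodes that passed the quality limits of the series. The nicotine mice held 827, 801 and 803 of them, and the control mice 1042, 760 and 886. Because the rule reads the protamine, transition protein and acrosomal levels, those sums describe the members and test nothing.

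Testes of 6 male C57BL/6J mice were dissociated whole, both testes of a mouse together, and their cells were captured in droplets for RNA sequencing with 10x Genomics 3′ v3 reagents, giving 1 library per mouse. The animals were 3 weeks old at the start and 11 weeks old at sampling. For 8 weeks the drinking water of the 3 nicotine mice held 200 µg/mL nicotine, and the 3 control mice had normal water. Per the labels 10000 cells were loaded per sample, and libraries held 10823 to 12317 barcodes and 67853893 to 88329607 UMIs, and the members gave 3529027 to 5303933 UMIs per mouse.

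As a round spermatid elongates, its histones give way to transition proteins and these to protamines, small arginine-rich proteins that pack the DNA of the sperm head. Transcription stops while the chromatin condenses, so late spermatids live on mRNAs made earlier and stored under translational control, and they shed most remaining cytoplasm and RNA in residual bodies that Sertoli cells engulf. Nicotine acts on nicotinic acetylcholine receptors, ligand-gated ion channels built from several subunits.

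The protamine and transition protein genes carry the rule and the main pattern inside it, so part of the sequence before their start sites is shown beside that of Ccl28, the only gene called higher in nicotine members. Prm2 (chr16:10791380-10796134), Prm1 (chr16:10796326-10805839) and Tnp2 (chr16:10787936-10788660) lie close together on the minus strand of chromosome 16 in GENCODE's annotation of GRCm38, and Tnp1 (chr1:73015074-73015909) lies on the minus strand of chromosome 1. Each run holds the 150 bases from 200 to 51 bases before the RefSeq start site (GRCm38.p6), 5′ to 3′ on the gene's strand. Capitals mark matches to TGANGTCA on either strand, a form of the cAMP response element that the factor CREM binds in spermatids.
Prm2, chr16:10792156-10792305, minus strand: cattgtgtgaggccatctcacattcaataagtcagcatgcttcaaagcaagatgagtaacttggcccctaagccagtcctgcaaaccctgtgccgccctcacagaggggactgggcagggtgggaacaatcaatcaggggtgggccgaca
Prm1, chr16:10796874-10797023, minus strand: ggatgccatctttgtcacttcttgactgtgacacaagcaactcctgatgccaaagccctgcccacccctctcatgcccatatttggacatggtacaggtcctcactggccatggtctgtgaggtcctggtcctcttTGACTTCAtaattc
Tnp1, chr1:73015950-73016099, minus strand: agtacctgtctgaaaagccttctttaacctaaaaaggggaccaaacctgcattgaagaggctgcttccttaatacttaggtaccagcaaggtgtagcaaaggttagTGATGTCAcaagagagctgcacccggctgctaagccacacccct
Ccl28, chr13:119623619-119623768, plus strand: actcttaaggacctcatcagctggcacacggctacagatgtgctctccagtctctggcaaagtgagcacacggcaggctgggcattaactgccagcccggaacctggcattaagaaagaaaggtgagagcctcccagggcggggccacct
The match in Prm1 starts 64 bases before the start site and that in Tnp1 94 bases before it, and the runs of Prm2 and Ccl28 hold none. Over the 250 bases before the start, 7.49% of all 32851 RefSeq promoters of the mouse hold the motif. It is in 0 of the 5 promoters found for the 6 label markers, 7 of 16 for the genes of the rule and 3 of 19 for the 15 most abundant genes. Among the genes with the most extreme ratios to transition protein-rich spermatids, described further on, it is in 1 of 14 promoters of the 12 highest and 3 of 11 of the 12 lowest, those of Fam71f1, H2al3 and Hmgb4. A match is a string of letters and not a measured binding site.

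The members carried the transcripts that the label names, at a higher share of UMIs than 3 other classes of barcodes. Levels are in CPM, a gene's UMIs per 1000000 UMIs of the class in that mouse, given as mean ± SD of 6 mice. They are not scaled by gene length, because 3′ counting tags 1 end of each transcript. Smcp, a cysteine-rich protein of the sperm mitochondrial capsule, averaged 10880 ± 879 CPM in members and 6042 ± 602 CPM in transition protein-rich spermatids, the 4011 barcodes with the same limits but at least 4% Tnp1 and Tnp2. Nudt16l2 averaged 1749 ± 145 CPM in members and 871 ± 81.2 CPM in transition protein-rich spermatids. Car2, carbonic anhydrase 2, averaged 1512 ± 109 CPM in members and 770 ± 71.5 CPM in transition protein-rich spermatids. Ttc24, a protein with tetratricopeptide repeats, averaged 1125 ± 36.8 CPM in members and 826 ± 50.4 CPM in transition protein-rich spermatids. Spem1, needed in the mouse for the removal of spermatid cytoplasm, averaged 891 ± 68.2 CPM in members and 436 ± 43.0 CPM in transition protein-rich spermatids. In the 2540 acrosomal round spermatid barcodes (under 2% protamine and at least 0.2% acrosomal UMIs) Nudt16l2, Car2, Ttc24 and Spem1 stood at 21.5 to 37.2 CPM, and in the 1022 barcodes with at least 1% Sertoli marker UMIs at 57.4 to 104 CPM. Smcp reached 1344 CPM in round spermatid barcodes, and in the 2308 barcodes that met the rule except for having 500 to under 2500 UMIs it was higher than in members, at 12567 CPM. Median UMIs per barcode were 4373 in members, 7383 in transition protein-rich spermatids, 5910 in round spermatid barcodes and 1270 in Sertoli marker barcodes. CPM thus compares shares of unlike totals, and a higher CPM need not mean more transcripts per barcode.

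**Figure D1:**
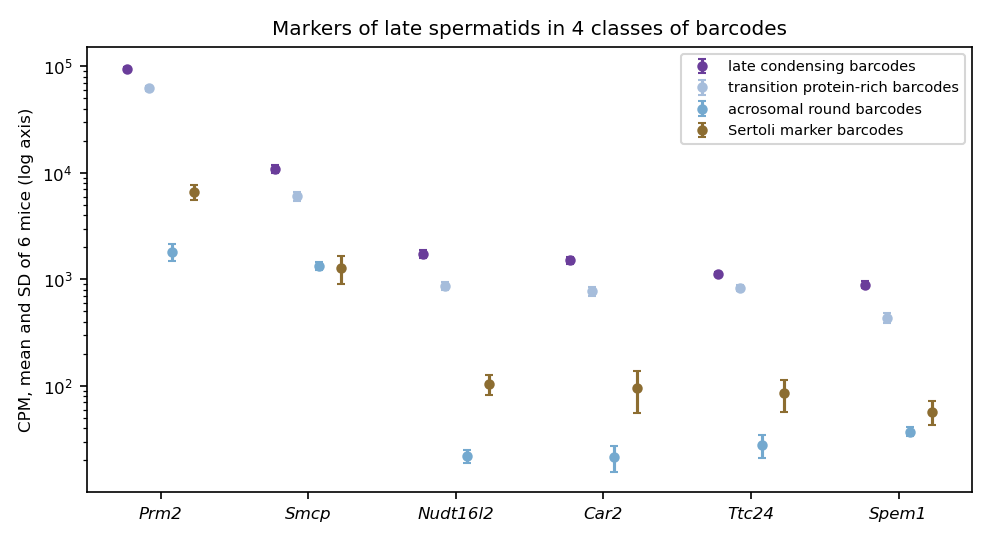
Levels of the 6 label markers in CPM (log axis) as mean and SD of 6 mice, in late condensing, transition protein-rich, acrosomal round and Sertoli marker barcodes. By CPM, all 6 markers are highest in the late condensing barcodes among the classes shown. Spem1 averages 891 CPM there against 436 CPM in transition protein-rich barcodes, and Prm2 is a gene of the rule. CPM is a share of UMIs, and the classes differ in UMIs per barcode.

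The marker levels were alike among mice, and for Nudt16l2, Spem1, Car2 and Smcp replicate 2 had the highest level in each group. Nudt16l2 had 1765, 1884 and 1631 CPM in nicotine mice, against 1590, 1953 and 1670 CPM in control mice. Spem1 had 887, 940 and 837 CPM in nicotine mice, against 812, 998 and 873 CPM in control mice. Ttc24 had 1150, 1112 and 1092 CPM in nicotine mice, against 1076, 1160 and 1161 CPM in control mice. The groups overlapped for each of these genes.

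Members just inside each limit of the rule are set beside barcodes just outside. The 257 members with 3% to 4% Tnp1 and Tnp2 had a median of 5653 UMIs and 15.7% protamine UMIs, and the 243 barcodes just outside, with 4% to 5%, had 5664 UMIs and 15.1%. At the lower UMI limit, the 370 members within 250 UMIs above it had 12.5% protamine UMIs, and the 406 barcodes within 250 UMIs below it had 12.1%. At the acrosomal limit, the 406 members with 0.04% to 0.05% had a median of 4608 UMIs, and the 394 barcodes with 0.05% to 0.06% had 3861.5. At the protamine limit, the 25 members with 2% to 3% had 2752 UMIs, and the 43 barcodes with 1% to 2% had 3191. Members had a median of 4373 UMIs, 1411 genes and 0.296% transition protein UMIs, and transition protein-rich spermatids 7383 UMIs, 1941 genes and 7.77%.

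Within the members, the shares of UMIs from Prm1 and from Prm2 ran in opposite directions. The rule uses their sum, so their split was free to vary, and it is given as a description. Members were ordered by their Tnp1 and Tnp2 share into 4 bins, 0% to 0.5% (3532 barcodes), 0.5% to 1% (545), 1% to 2% (481) and 2% to 4% (561). Over these bins Prm1 averaged 24813, 65895, 77045 and 78995 CPM. Prm2 averaged 102771, 82410, 81015 and 77004 CPM. Members with the least transition protein transcript therefore had the lowest Prm1 and the highest Prm2 share of UMIs. Median UMIs per barcode over the same bins were 4032.5, 4790, 5391 and 5666. The higher Prm2 share in the first bin is thus a share of a smaller total, and need not mean more Prm2 transcripts per barcode.

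Prm2 made up 80.7% ± 3.80 of protamine UMIs in the bin below 0.5%, and 55.8% ± 4.87, 51.6% ± 4.83 and 49.6% ± 4.90 in the next 3 bins (SD, n = 6). In transition protein-rich spermatids it made up 46.9% ± 4.95. The drop between the first and the next bin held in each mouse, with 76.7% to 86.3% in the first and 49.2% to 62.2% in the next. Barcode by barcode, the median Prm2 share was 74.2%, with quartiles of 55.7% and 90.4%. More Prm1 than Prm2 UMIs were found in 721 of the 5119 members, and 2185 had at least 80% Prm2. The 2308 barcodes with under 2500 UMIs had a Prm2 share of 84.3% ± 2.99. Depth moved with this split: the Prm2 share was 84.0% ± 3.48 at under 3500 UMIs, 70.9% ± 5.56 at 3500 to under 5000 and 64.1% ± 4.75 at 5000 or more. Prm1 averaged 19555, 38621 and 52801 CPM and Prm2 102113, 92992 and 93324 CPM over the same 3 depths.

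**Figure D2:**
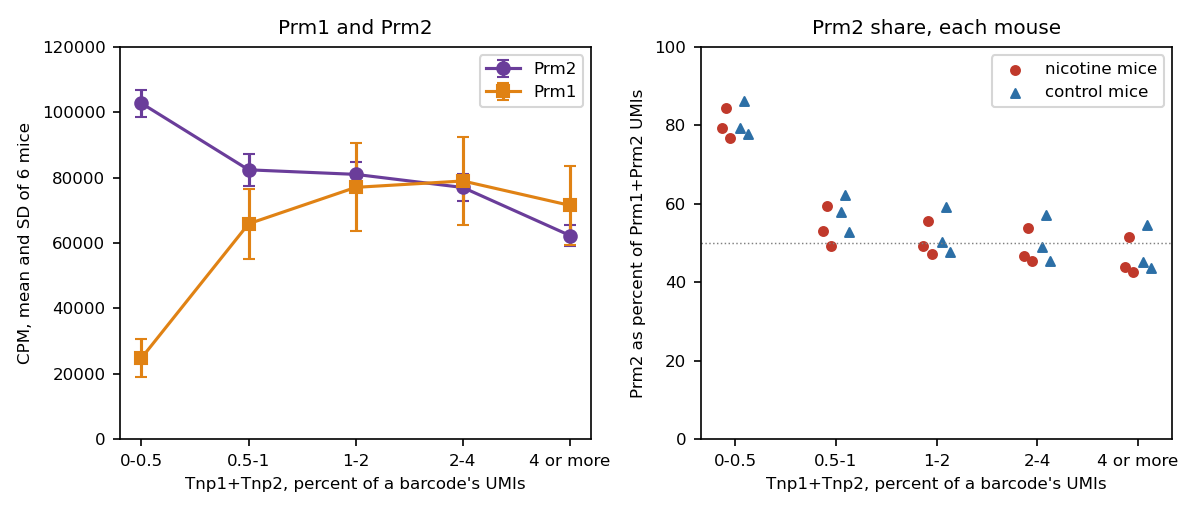
Left, Prm2 and Prm1 levels in CPM (mean and SD of 6 mice) over bins of the Tnp1 and Tnp2 share of a barcode's UMIs; the last bin is the transition protein-rich class outside the rule. Right, Prm2 as percent of Prm1 and Prm2 UMIs in each nicotine and control mouse, with a dotted line at 50%. The share averages 80.7% in the bin below 0.5% and 49.6% at 2% to 4%.

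The split over all members overlapped between the groups. Prm2 took 68.8%, 74.8% and 64.5% of members' protamine UMIs in nicotine mice, against 66.9%, 75.2% and 65.8% in control mice. The means were 69.4% ± 5.16 in nicotine mice and 69.3% ± 5.15 in control mice (SD, n = 3 each; two-sided exact permutation test over mice, p = 1.0, with 0.1 the smallest p possible). Tnp2, the larger and zinc-binding transition protein, took 66.9%, 69.1% and 63.9% of transition protein UMIs in nicotine mice, against 65.1%, 69.9% and 65.6% in control mice (exact permutation test, p = 1.0). For both measures replicate 2 was highest in its group. Within the 4 bins of transition protein share the mean Prm2 share was lower in nicotine mice each time, at 80.1% ± 3.90, 53.9% ± 5.21, 50.7% ± 4.45 and 48.7% ± 4.58 in nicotine mice and 81.2% ± 4.48, 57.6% ± 4.72, 52.4% ± 6.03 and 50.6% ± 6.05 in control mice (SD, n = 3 each). In transition protein-rich spermatids it was 46.0% ± 4.89 in nicotine mice and 47.7% ± 5.93 in control mice. Each of these differences was smaller than the SD within either group. Replicate 2 was highest in both groups each time, and the SD includes that shared spread. In order of replicate number, the bin below 0.5% had 79.2%, 84.4% and 76.7% in nicotine mice, against 79.4%, 86.3% and 77.9% in control mice. The bin of 2% to 4% had 46.7%, 54.0% and 45.5% in nicotine mice, against 49.0%, 57.3% and 45.5% in control mice. The differences within bins were not tested. Prm1 itself had 41864, 31356 and 49490 CPM in nicotine mice, against 48635, 32329 and 50182 CPM in control mice. Prm2 had 92150, 93082 and 90067 CPM in nicotine mice, against 98087, 98131 and 96643 CPM in control mice, and those values do not overlap. Both are rule genes, so no test is given for their levels. In each library nicotine members had 13.4%, 12.4% and 13.96% protamine UMIs, against 14.7%, 13.05% and 14.7% in control members.

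The RNA of members was concentrated in few genes, with 45.6% of UMIs in the 100 highest and 23.6% in the 15 highest. After Prm2 and Prm1 came Dbil5, a diazepam-binding inhibitor-like peptide of spermatids, at 11984 ± 543 CPM, then Smcp, and Gsg1, a germ cell protein that binds the testis poly(A) polymerase, at 9952 ± 468 CPM. Gm5617, a protein-coding gene by its annotation, stood at 8011 ± 346 CPM. Odf2, a main protein of the outer dense fibres of the tail, stood at 7611 ± 408 CPM, and Fabp9, a fatty acid-binding protein of spermatids, at 7600 ± 238 CPM. Ube2n, which builds ubiquitin chains linked through lysine 63, stood at 7586 ± 514 CPM, and Eif1, which guides start codon choice, at 7271 ± 400 CPM. Gstm5, a glutathione transferase, averaged 6816 ± 295 CPM, Pebp1 5238 ± 410 CPM, and Crisp2, a cysteine-rich protein of acrosome and tail, 4624 ± 213 CPM. Tnp2, at 5239 ± 632 CPM, was still among the 15 highest genes. The remaining one was 1700027A15Rik at 5708 ± 940 CPM, whose annotated span on chromosome 1 overlaps Tnp1 on the other strand. Whether counting kept this pair apart by strand is not given here, and its level in members relative to transition protein-rich spermatids was 1.80 times, and that of Tnp1 0.0752 times.

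Relative to transition protein-rich spermatids, slightly more genes had a larger than a smaller share of UMIs, while large drops outnumbered large gains. All values in this comparison are a description, because the rule defines both classes. Of 2229 genes outside the rule with at least 50 CPM in either class, 34 had a ratio of mean CPM above 2 in members over transition protein-rich spermatids, 368 had one below 0.5 and 80 one below 0.2. The median ratio was 1.09. Counted as UMIs per barcode, members held a median of 0.699 times as many, and only 370 of the 2229 genes had more UMIs per member than per transition protein-rich spermatid. Thus a CPM ratio above 1 marks, for most genes, a larger share of a smaller total.

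**Figure D3:**
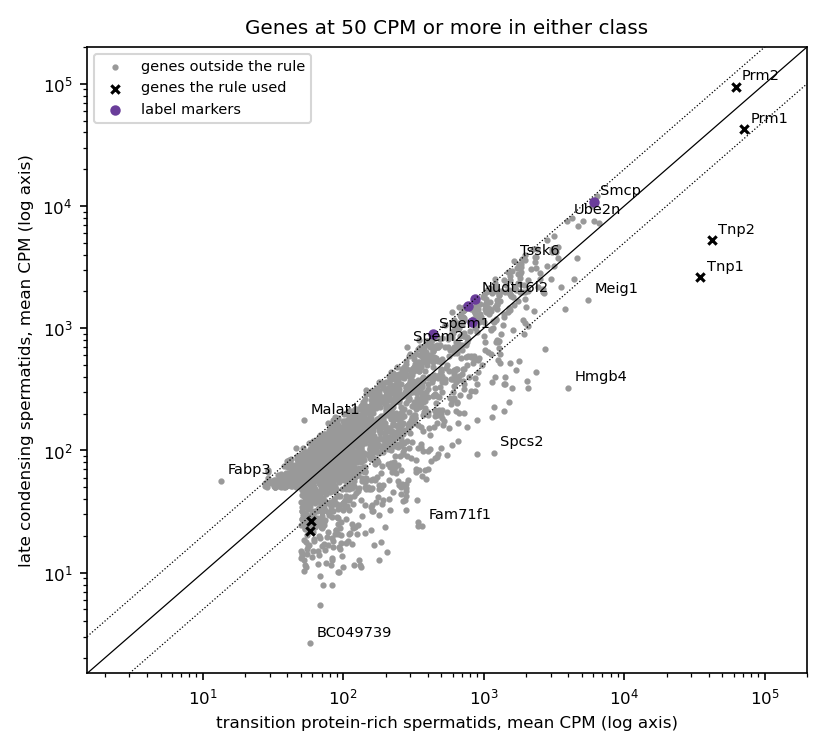
Mean CPM over 6 mice of genes with at least 50 CPM in either class, members on the vertical and transition protein-rich spermatids on the horizontal axis (log axes), with lines at ratios of 2, 1 and 0.5. Crosses are genes the rule used and purple points the label markers outside the rule. More genes lie below the lower dotted line (368) than above the upper one (34).

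The genes highest relative to transition protein-rich spermatids were led, among those alike in every mouse, by a gene beside a label marker. Spem2, the neighbour of Spem1 on chromosome 11, averaged 699 ± 27.2 CPM in members, a ratio of 2.45, with 2.37 to 2.54 over the 6 mice. Tbc1d20, a GTPase activator for Rab proteins whose loss leaves male mice sterile, averaged 803 CPM with a ratio of 2.30. Tssk3, a testis-specific serine kinase, averaged 1355 CPM with a ratio of 2.26, and Phkg2, the catalytic subunit of phosphorylase kinase in testis and liver, 1480 CPM with a ratio of 2.22. Coil, the marker protein of Cajal bodies, had a ratio of 2.37, and 1700037C06Rik, 5031439G07Rik, Lrrc1 and Bri3bp had 2.15 to 2.25. Ratios of Fabp3, Malat1 and Magi2 were also among the 12 highest but differed widely among mice. Fabp3, a fatty acid carrier, had a ratio of 4.21 and a range of 0.68 to 11.6, with 38.5, 40.1 and 8.68 CPM in nicotine members against 186, 31.1 and 34.8 CPM in control members. Malat1, a nuclear non-coding RNA, had a ratio of 3.36 and a range of 1.22 to 7.64, and Magi2, a scaffold protein, 2.27 and 1.55 to 3.38. Leydig cell markers made up 0.0118% of members' UMIs in control mouse 1, the mouse with the high Fabp3, and 0.000504% to 0.00454% in the other mice; their part in the result was not tested.

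The 12 genes lowest relative to transition protein-rich spermatids all had ratios under 0.1. Hmgb4, a high mobility group protein of spermatid chromatin, averaged 327 ± 29.0 CPM in members and 3988 CPM in transition protein-rich spermatids, a ratio of 0.0821. H2al3, a gene of the histone H2A-like family, had a ratio of 0.0706, and Spcs2, a subunit of the signal peptidase, 0.0813. Sqor, which oxidises sulphide in mitochondria, had 0.0765, and Impad1, a phosphatase of the Golgi, 0.0957. The lowest of all was the non-coding BC049739 at 0.0459, with Fam71f1, Efcab3, Fam78a and 3 further non-coding genes (1700052I22Rik, 1700015H07Rik and 4930414N06Rik) at 0.0664 to 0.0884. Within members, Hmgb4 went up with the transition protein share, at 161, 341, 553 and 935 CPM over the 4 bins.

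Gene groups are described by how many of their genes had a ratio above 1.25 or below 0.8, beside 902 and 771 of all 2229 genes; no difference between groups was tested. Of 11 genes of the mitochondrial sheath at 50 CPM or more, 7 had a ratio above 1.25 and 2 one below 0.8 (median 1.42), with Spata18 at 2124 CPM and 1.76, and Gpx4, the selenoenzyme that hardens the sheath, at 3780 CPM and 1.13. Of 6 autophagy genes 5 were above and none below (median 1.47), among them Map1lc3a at 1974 CPM and 1.71, while Gabarapl1 at 2526 CPM had 0.841. Of 21 ubiquitin and proteasome genes 12 were above and 4 below (median 1.36), with the polyubiquitin gene Ubb at 4456 CPM and 1.46 and Ubxn6, an adaptor of the p97 ATPase, at 1446 CPM and 1.78. Of 16 genes of the outer dense fibres and fibrous sheath 8 were above and 5 below (median 1.23), with Tcp11 at 3844 CPM and 1.64 and the sperm form of glyceraldehyde-phosphate dehydrogenase, Gapdhs, at 4167 CPM and 1.37. Of 13 axoneme genes 7 were above and 2 below (median 1.33); the dynein light chain gene Dynll2 had 0.381 and Rsph1, a radial spoke protein, 1.53. Of 13 sperm glycolysis genes 7 were above and 3 below (median 1.25), with Hk1, hexokinase, at 2.04 and Ldhc, the testis lactate dehydrogenase, at 0.791.

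Of 9 chromatin condensation genes outside the rule 2 were above 1.25 and 5 below 0.8 (median 0.678), with Tssk6, a kinase needed in the mouse for the exchange of histones, at 3517 CPM and 2.13. Of 8 perinuclear theca genes 3 were above and 4 below (median 0.723), from Actrt2, an actin-related protein, at 0.306 to 1700012A03Rik at 1.84. Of 12 serine kinases and phosphatases 4 were above and 5 below (median 0.841). Of 72 cytosolic ribosomal protein genes 19 were above and 27 below (median 1.04), with Rpl41 at 3349 CPM and 1.80. Of 14 genes of head shape, manchette and head-tail coupling 6 were above and 4 below (median 1.05), and Meig1, needed in the mouse for manchette function, had 0.311 at 1718 CPM. Acrosome and fusion genes outside the rule had 5 of 10 above and 4 below (median 1.23), with Adam3 at 0.418 and Spink2, an acrosomal protease inhibitor, at 1.26. Of 15 genes of stored mRNA and translation control 7 were above and 1 below (median 1.21), of 26 nuclear genes of oxidative phosphorylation 12 and 4 (median 1.19), and of 14 redox and glutathione genes 6 and 4 (median 1.07). Of 5 apoptosis and DNA damage genes 4 were above and 1 below (median 1.52), and of 6 genes of ion channels and motility signalling 1 was above and 2 below (median 0.904).

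Markers of other cell types together made up small shares of the members' UMIs, though single genes of the lists were not low. Spermatocyte markers made up 0.0141% to 0.0203% of members' UMIs per mouse, spermatogonial markers 0.00159% to 0.00235% and round spermatid markers, which the rule limits, 0.0103% to 0.0128%. Sertoli cell markers made up 0.0113%, 0.00924% and 0.00927% in nicotine mice, against 0.0190%, 0.0108% and 0.0121% in control mice, and Leydig cell markers 0.00201%, 0.00454% and 0.000504% in nicotine mice, against 0.0118%, 0.00325% and 0.00212% in control mice. Myoid cell markers made up 0.0262%, 0.0288% and 0.0261% in nicotine mice, against 0.0248%, 0.0305% and 0.0278% in control mice, nearly all of it Actg2 at 269 CPM, while Acta2 and Tagln were at 0.997 and 0.331 CPM. Among Sertoli markers Defb19 was highest at 52.4 CPM, and Sox9, the defining Sertoli transcription factor, stood at 0.257 CPM. Star of Leydig cells stood at 2.42 CPM, and Csf1r and Cd74 of macrophages at 0.476 and 0.0939 CPM. The macrophage gene C1qb was at 64.1 CPM in members while its partner C1qa was at 4.78 CPM. One barcode sequence of 5118 was found among members of more than 1 library, and over all barcodes 564 of 67829 were shared. Doublet scores marked 5.68%, 7.37% and 7.97% of members in nicotine mice, against 10.2%, 5.79% and 8.35% in control mice, and these members were kept.

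The share of late condensing spermatids did not differ between the groups beyond the spread among mice. They were 7.62%, 7.40% and 6.94% of kept barcodes in nicotine mice, against 8.73%, 7.05% and 7.26% in control mice. The means were 7.32% ± 0.345 in nicotine mice and 7.68% ± 0.912 in control mice (SD, n = 3 each; two-sided exact permutation test, p = 0.8, adjusted over 4 measures 1.0). Control mouse 1 had the highest share, and the difference, -0.358 percentage points with all mice, was 0.165 without it. Among barcodes within the UMI limits alone the share was 23.5%, 23.7% and 20.3% in nicotine mice, against 25.1%, 25.9% and 25.6% in control mice. There the groups do not overlap, and the exact permutation test gave p = 0.1, the smallest that 3 against 3 allows. A share of recovered barcodes cannot tell fewer cells from cells lost in dissociation or capture.

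At equal depth, nicotine members showed more genes per barcode. After each member was thinned at random to 2500 UMIs, the median number of genes was 1001, 990 and 1013 in nicotine mice, against 975.5, 963.5 and 965 in control mice. The groups do not overlap, and the difference of 33.3 genes had an exact permutation p = 0.1, the smallest possible, and 0.4 after adjustment over 4 measures. The protamine share of UMIs, given above, was lower in nicotine mice on average, and more members lay below 0.5% Tnp1 and Tnp2; the part of both in the result was not tested. The share of members below that limit was 73.0%, 73.4% and 68.7% in nicotine mice, against 62.3%, 69.1% and 69.3% in control mice. Among members below 0.5% alone, a limit chosen after seeing the data, the difference was 35.8 genes. Among those below 2% it was 34.5 genes (exact permutation test, p = 0.1 for each). With rule genes and mitochondrial genes left out and 1500 UMIs drawn, the medians were 786, 771 and 793 in nicotine mice, against 775, 756 and 766 in control mice. That difference was 17.7 genes, the groups overlap, and the exact permutation test gave p = 0.2. Median UMIs per member before thinning were 4006, 4455 and 4138 in nicotine mice, against 4783.5, 4415 and 4492 in control mice.

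**Figure D4:**
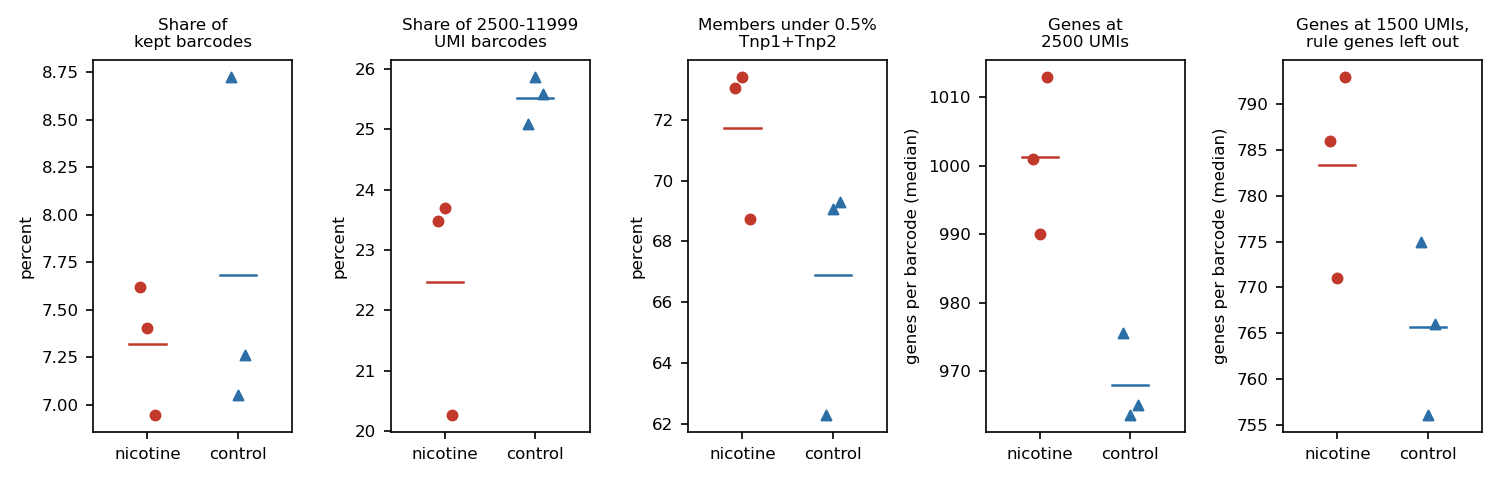
Values per mouse for members: their share of kept barcodes, their share of barcodes within the UMI limits, the percent of members below 0.5% Tnp1 and Tnp2, and median genes per barcode at 2500 UMIs and, without rule and mitochondrial genes, at 1500 UMIs. Points are mice and bars group means; the axes do not start at 0. The groups are apart for the share of the UMI window and for genes at 2500 UMIs, where nicotine mice have 990 to 1013 and control mice 963.5 to 975.5.

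Few genes were called between nicotine and control members. With edgeR's quasi-likelihood test on UMI counts summed per mouse, 2 of 9824 genes outside the rule passed a Benjamini-Hochberg adjusted p of 0.05 (0.0204%), 1 higher and 1 lower in nicotine mice (0.0102% each). DESeq2 called neither of them, and without control mouse 2 edgeR called 30 genes. At an unadjusted p of 0.05, 461 genes passed (4.69%), and the median log2 fold change over all genes was 0.0044. On plain CPM, 915 genes (9.31%) had every nicotine mouse above the highest control mouse, and 237 (2.41%) had every one below the lowest. TMM scaling factors, which the test uses, were 0.998 to 1.04 in nicotine mice and 0.968 to 0.993 in control mice.

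Ccl28, a chemokine that draws lymphocytes to mucosal surfaces, was the gene called higher. It had 16.2, 13.2 and 17.4 CPM in nicotine mice, against 6.79, 6.49 and 5.6 CPM in control mice. These values come from 57, 50 and 62 UMIs in nicotine mice and 36, 23 and 24 UMIs in control mice. The groups do not overlap, and Ccl28 was 1.23 higher on the log2 scale (SE 0.203, adjusted p = 0.00273 by edgeR and 0.0656 by DESeq2). In members below 0.5% Tnp1 and Tnp2 the means were 15.7 ± 3.51 CPM in nicotine mice and 6.83 ± 0.377 CPM in control mice (SD, n = 3 each), and the edgeR adjusted p there was 0.310. The gene lies at chr13:119623819-119654359 on the plus strand, and its annotation overlaps no other gene.

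The difference in Ccl28 was not shown to be particular to the members. In transition protein-rich spermatids it had 12.1, 12.6 and 13.3 CPM in nicotine mice, against 6.68, 8.85 and 7.91 CPM in control mice, giving 0.68 on the log2 scale (SE 0.190, adjusted p = 0.613 by edgeR). The difference of the 2 log2 fold changes was 0.53 (SE 0.263, edgeR adjusted p = 0.894). In acrosomal round spermatid barcodes it had 17.4, 17.4 and 26.1 CPM in nicotine mice, against 11.5, 18.7 and 7.32 CPM in control mice, which overlap. In Sertoli marker barcodes it had 13.3, 10.6 and 11.0 CPM in nicotine mice, against 6.66, 0 and 3.19 CPM in control mice. Those Sertoli values rest on very few UMIs. The class held 105, 124 and 140 barcodes in nicotine mice and 313, 120 and 220 in control mice, with a median of 1270 UMIs per barcode. Its mean was higher in nicotine mice in each of these classes, and the part of free RNA in the droplets was not tested.

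Selenop, the secreted carrier of selenium, was the gene called lower, and at a mean below 10 CPM it is named outside the rule for names, after its values were seen. Its annotation overlaps Ccdc152 on the other strand. Selenop had 0.850, 2.38 and 0.560 CPM in nicotine mice, against 6.03, 8.47 and 3.97 CPM in control mice. It passed the filter on low counts through the control mice alone, the group where it is high, so the call carries little weight. The groups do not overlap, and the log2 fold change was -2.27 (SE 0.411, edgeR adjusted p = 0.0154, DESeq2 adjusted p = 0.117). The counts were small and uneven: 14 UMIs in 7 nicotine barcodes and 79 UMIs in 27 control barcodes, with 49 of the control UMIs in 5 barcodes and up to 22 in 1. Of the barcodes with a Selenop UMI, 4 of 7 in nicotine mice and 12 of 27 in control mice were among those marked by the doublet score. Leydig cell markers were present in 10 of the 27 control barcodes, against 5.88% of all control members. With marked barcodes removed, Selenop no longer reached the count needed for a test, and the part of doublets or Leydig cell RNA in the result was not tested.

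**Figure D5:**
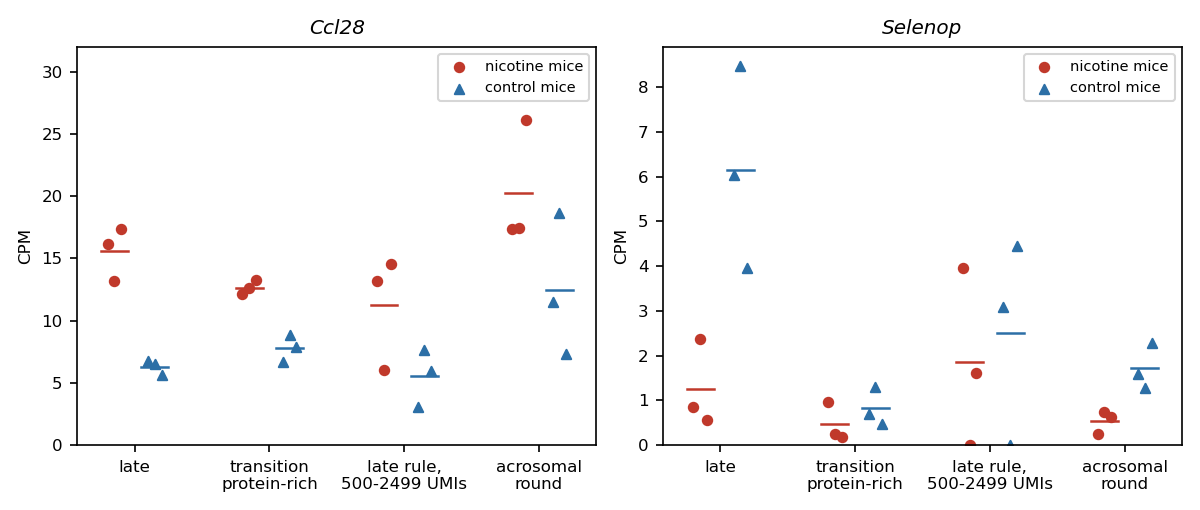
CPM of Ccl28 and Selenop in each nicotine and control mouse, in members, transition protein-rich spermatids, barcodes of the same rule at under 2500 UMIs and acrosomal round spermatids; bars are group means. Ccl28 in members has 13.2 to 17.4 CPM in nicotine mice and 5.6 to 6.79 CPM in control mice, and Selenop is below 10 CPM throughout.

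The next genes by p did not pass with all mice and the filter on low counts, and 3 of them are named after their values were seen. Rps4x, a ribosomal protein of the X chromosome, had 7.08, 5.28 and 2.52 CPM in nicotine mice, against 13.6, 8.19 and 12.4 CPM in control mice (edgeR adjusted p = 0.126, and called in 4 of 18 alternatives). Cycs, somatic cytochrome c, had 8.78, 7.39 and 7.28 CPM in nicotine mice, against 14.9, 14.1 and 11.7 CPM in control mice (edgeR adjusted p = 0.257, and called in 1 of 19 alternatives). Tsx, an X-linked testis gene, had 3.97, 2.64 and 2.24 CPM in nicotine mice, against 5.84, 6.495 and 7.47 CPM in control mice (edgeR adjusted p = 0.386). All 3 are low in members and higher in Sertoli marker barcodes, at 163 CPM for Rps4x, 1013 CPM for Cycs and 606 CPM for Tsx. Of the 7 Sertoli markers 5 could be tested, and all 5 were lower in nicotine members (median log2 fold change -0.74, none called). Of the 6 Leydig markers 4 could be tested, and all 4 were lower (median -1.53, none called). The filter on low counts needs a sufficient level in only 3 of the 6 mice, so scarce markers can enter through 1 group. Summed over all listed markers, the groups overlapped for both cell types. Leydig markers made up 0.00201%, 0.00454% and 0.000504% of UMIs in nicotine members, against 0.0118%, 0.00325% and 0.00212% in control members. The part of Sertoli and Leydig cell RNA in these results was not tested.

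No gene of the functional groups was called, and most group medians lay near that of all genes. The 5 label markers outside the rule were all lower in nicotine members, with a median log2 fold change of -0.04 and overlapping groups for each. Of 12 tested chromatin condensation genes outside the rule 3 were higher and 9 lower (median -0.08). Of 18 genes of outer dense fibres and fibrous sheath 4 were higher and 14 lower (median -0.08), and of 14 perinuclear theca genes 3 were higher and 11 lower (median -0.11). Of 15 mitochondrial sheath genes 8 were higher and 7 lower (median 0.03). Of 26 axoneme genes 17 were higher and 9 lower (median 0.04), of 44 nuclear genes of oxidative phosphorylation 27 and 17 (median 0.04), and of 80 cytosolic ribosomal protein genes 23 and 57 (median -0.04). Of 24 redox and glutathione genes 4 were higher and 20 lower (median -0.06), with Gstm5 at -0.07 and Sod1, superoxide dismutase, at -0.02. Of 27 ubiquitin and proteasome genes 11 were higher and 16 lower (median -0.0047), of 23 genes of head shape and manchette 10 and 13 (median -0.01), of 24 acrosome and fusion genes 13 and 11 (median 0.03), and of 16 glycolysis genes 6 and 10 (median -0.06). With nicotine mice higher, groups did not overlap for 5 of 15 mitochondrial sheath, 5 of 26 axoneme and 4 of 27 ubiquitin and proteasome genes. The same held for 4 of 23 stored mRNA and translation control, 3 of 16 glycolysis and 3 of 23 head shape and manchette genes. It held for 2 of 44 oxidative phosphorylation, 1 of 24 redox and 1 of 24 acrosome and fusion genes. It held for 0 of 80 ribosomal protein, 0 of 18 outer dense fibre and fibrous sheath, 0 of 14 perinuclear theca and 0 of 12 chromatin condensation genes. The share over all genes was 9.31%. With nicotine mice lower, groups did not overlap for 3 of 24 redox, 2 of 18 outer dense fibre and fibrous sheath and 2 of 23 head shape and manchette genes. The same held for 2 of 44 oxidative phosphorylation, 1 of 80 ribosomal protein, 1 of 24 acrosome and fusion and 1 of 12 chromatin condensation genes. It held for 0 genes of the other groups just counted, beside 2.41% of all genes.

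The immediate early and the apoptosis genes had medians further from 0. Of 11 tested immediate early genes, transcription factors induced by stress and dissociation among other stimuli, 1 was higher and 10 lower (median -0.58). Summed over all 18 listed, the groups overlapped. The sum was 0.0181%, 0.0210% and 0.0163% of UMIs in nicotine members, against 0.0251%, 0.0188% and 0.0232% in control members. The tested markers of Sertoli cells (5 of 7), Leydig cells (4 of 6) and macrophages (3 of 6, median -1.40) were all lower in nicotine members. Scarce markers can enter the test through 1 group, so that direction carries little weight. Spermatocyte markers were 5 higher and 1 lower, myoid cell markers 1 and 1, and stromal cell markers 0 and 2. The 1 spermatogonial marker tested was lower and the 1 endothelial marker higher. The part of these cell types in the immediate early result was not tested. Summed over all 6 listed, macrophage markers overlapped between groups. They made up 0.00609%, 0.00811% and 0.00641% of UMIs in nicotine members, against 0.00726%, 0.00994% and 0.00688% in control members. Junb had 7.93, 8.98 and 8.40 CPM in nicotine mice, against 17.7, 8.75 and 14.7 CPM in control mice, which overlap, and an edgeR adjusted p of 0.401. Of 12 tested genes of apoptosis and DNA damage 8 were higher and 4 lower (median 0.12). Hspa2, a heat shock protein of spermatogenic cells, had 309, 279 and 314 CPM in nicotine mice, against 267, 236 and 235 CPM in control mice, without overlap (log2 fold change 0.22, SE 0.0948, edgeR adjusted p = 0.973). Of 16 nicotinic acetylcholine receptor subunit genes 3 had enough counts for the test. Of these, 1 (Chrna9) was higher and 2 were lower in nicotine members (median -0.05), and none was called. Chrne had 45.0 ± 5.43 CPM over the 6 mice and Chrna2 12.7 ± 2.65 CPM. Chrna9 had 5.95, 6.07 and 4.76 CPM in nicotine mice, against 3.96, 4.52 and 4.20 CPM in control mice (log2 fold change 0.35, SE 0.281, edgeR adjusted p = 0.973).

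The nicotine effect differed between members and transition protein-rich spermatids for 5 of 10890 genes outside the rule (0.0459%), by edgeR's test of the class by treatment term with the mouse as block. In all 5 the log2 fold change was lower in members than in transition protein-rich spermatids. By edgeR, 0 of 9685 genes outside the rule were called for nicotine within transition protein-rich spermatids (396, or 4.09%, at an unadjusted p of 0.05), and none of the 5 was called within members. Hmgb4, whose gene lies within Csmd2 on the other strand, had 297, 312 and 314 CPM in nicotine members, against 338, 380 and 324 CPM in control members. In transition protein-rich spermatids it had 3926, 4566 and 4103 CPM in nicotine mice, against 3903, 3928 and 3498 CPM in control mice. Its log2 fold change was -0.24 in members and 0.10 in transition protein-rich spermatids, a difference of -0.36 (SE 0.0563, edgeR adjusted p = 5.1e-05).

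The other 4 genes called for the difference were less abundant in transition protein-rich spermatids than Hmgb4. 1700010D01Rik, a non-coding gene that overlaps Zc3h12b on the other strand of the X chromosome, had 131, 130 and 154 CPM in nicotine members, against 175, 158 and 182 CPM in control members, and a difference of -0.38 (edgeR adjusted p = 0.000653). Tex37, a testis-expressed gene, had 74.5, 93.5 and 80.6 CPM in nicotine members, against 89.7, 137 and 82.8 CPM in control members, and a difference of -0.42 (edgeR adjusted p = 0.00494). Gm10638, which overlaps Siah1a on the other strand, had a difference of -0.23 (edgeR adjusted p = 0.0458). The non-coding Gm41335 had 36.6, 20.1 and 27.7 CPM in nicotine members, against 30.9, 34.7 and 33.4 CPM in control members, and 22.6, 8.96 and 10.3 CPM in nicotine transition protein-rich spermatids, against 7.52, 4.42 and 9.31 CPM in control ones, for a difference of -1.16 (edgeR adjusted p = 0.00333). Levels of Hmgb4, 1700010D01Rik, Tex37 and Gm10638 climb steeply with the transition protein share inside the rule: 1700010D01Rik averaged 54.0, 155, 310 and 513 CPM over the 4 bins. Among members below 0.5% the difference was -0.33 for Hmgb4 (edgeR adjusted p = 0.0700), -0.05 for 1700010D01Rik, -0.12 for Tex37 and -0.09 for Gm10638, none of them called, and -1.15 for Gm41335, which stayed called. Without nicotine mouse 2 none of the 5 was called.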

How the data were processed

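The authors deposited raw counts of UMIs per gene and barcode for each of the 6 libraries, made with Cell Ranger 7.2.0 on GRCm38 (mm10), per the submitters' processing notes. Cell calling, the annotation, and whether intronic reads or strand were used are not given in the sources used here. Barcodes with at least 500 UMIs, 250 genes and under 20% mitochondrial UMIs were kept, and the rule for late condensing spermatids was applied to them. Scrublet scores (scanpy 1.11.5) were computed per library, and the highest scores, at 0.8% per 1000 barcodes, were left out only as an alternative. The rule, the gene lists and the tests were chosen with earlier results of these data known, so a pattern in them is no independent evidence.

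Counts were summed per mouse and tested with edgeR 4.0.16 (R 4.3.3), using the robust quasi-likelihood fit, filterByExpr and TMM, with Benjamini-Hochberg adjustment over the genes tested; rule genes and mitochondrial genes were left out of calls. DESeq2 1.42.0 was an alternative, and the limit of 0.5% Tnp1 and Tnp2 and the counts without rule and mitochondrial genes were alternatives chosen after seeing the data. The fit was tested on simulated data beforehand, with changes placed in genes above a count limit. It recovered 25 of 67 changes of 1.5-fold, 58 of 67 of 2-fold and 66 of 66 of 4-fold. Of its 160 calls 11 lay outside the changed genes. Changes of 1.5-fold or less, and some of 2-fold, can therefore be missed. Genes below the count limit were given no change, so the recovery of changes in them is not known. The 4 measures per mouse (share, Prm2 share, Tnp2 share and genes at 2500 UMIs) were compared by two-sided exact permutation tests written with numpy 2.4.6, and 3 mice against 3 cannot go below p = 0.1. Each mouse is 1 replicate; the labels give no dates or batches. CPM values divide by all UMIs of a class in a mouse, with 3529027 to 5303933 UMIs behind the members' values, and PCR duplicates are removed by UMIs.

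Genes were named by a fixed rule. It takes the label markers, the 15 highest genes, the 12 largest and 12 smallest ratios to transition protein-rich spermatids at 50 CPM or more, called genes at a mean of 10 CPM or more without overlap, and up to 4 of the highest genes per list. Equal replicate numbers were not shown to pair the mice (correlations of deviations 0.0447, 0.153 and 0.140 over 7559 genes, not all over 0.1), so the block was used only as an alternative. Mice of unlike numbers had lower correlations, from -0.136 to 0.0108. Any spread shared by equal numbers is not taken out of the tests without the block.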

Additional observations from a re-analysis of the deposited data

Results flagged for a closer look

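For 5 genes the log2 fold change of nicotine over control differed between late condensing and transition protein-rich spermatids, by the edgeR test of that difference. The difference was -0.36 for Hmgb4, -0.38 for 1700010D01Rik, -1.16 for Gm41335, -0.42 for Tex37 and -0.23 for Gm10638. Under 10 alternatives the call was kept in 7 for Hmgb4, 5 for 1700010D01Rik, 5 for Gm41335, 4 for Tex37 and 3 for Gm10638. The adjusted p over those alternatives reached 0.723 for Hmgb4 and 1.00 for each of the other 4 genes. With doublet scores removed the difference for Gm41335 was -0.33 and was not called.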

How the results depend on the processing

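The difference in the late spermatid share was -0.358 percentage points (-0.672 to 0.165 with 1 mouse left out) and turned to 0.144 with a limit of 0.5% Tnp1 and Tnp2, an alternative chosen after seeing the data. The difference in Prm2 share was 0.0692 points (-2.65 to 3.03 with 1 mouse left out), -0.660 with a limit of 2% Tnp1 and Tnp2, -0.335 at 4000 or more UMIs and -1.08 with the limit of 0.5%. The difference in Tnp2 share was -0.212 points (-1.43 to 1.31), 0.745 with the limit of 2% and 1.79 with that of 0.5%. None of these passed a test, and the cause was not tested. Genes at equal depth stayed 27.5 to 39.0 higher in nicotine mice with 1 mouse left out.

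Of 9824 genes 2 were called. DESeq2 called 1 gene, which was neither of them, with adjusted p of 0.0656 for Ccl28 and 0.117 for Selenop. With no filter on low counts 18 were called, 17 of them lower. One gene was called at 10 CPM or more in 3 mice, with a limit of 2% Tnp1 and Tnp2, with equal barcodes per mouse and after thinning, and 0 by edgeR with the limit of 0.5% (314 at an unadjusted p of 0.05). Leaving out 1 mouse gave 2 to 30 calls, with 30 without control mouse 2 and 5 without nicotine mouse 2. Ccl28 was called in 17 of 19 alternatives (adjusted p 3.8e-05 to 0.310). Selenop was called in 8, lost in 6 and had too few counts in 5, and it was lost without control mouse 1 (adjusted p 0.0914), nicotine mouse 1 (0.301) or nicotine mouse 3 (0.189). Rps4x was called with no filter (adjusted p 0.000305), with the replicate block (0.01004), without control mouse 2 (1.6e-05) and without nicotine mouse 1 (0.0487), and Cycs with no filter (0.0336).

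For the difference of nicotine effects, 5 genes became 18 with no filter, 1 after thinning, 21 with doublet scores removed and 2 with the limit of 0.5%, and 0 to 26 with 1 mouse left out. The count was 26 without control mouse 1, 3 without control mouse 2, 1 without nicotine mouse 1 or 3 and 0 without nicotine mouse 2.

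With the replicate number as a block, 14 genes were called in members, 13 of them lower; the numbers were not shown to pair the mice, although each sample correlated best with the one of its own number. For the 4 measures the exact test could make no call with or without the block.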
